A study of Mus musculus with 12 samples.

Results

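Members of 2 neighbouring gene families of mouse chromosome 6 were followed in lung: the C-type lectin genes Clec2d, Clec2g and Clec2i and the receptor genes Klrb1b, Klrb1c and Klrb1f of the natural killer (NK) gene complex. They were taken by their gene symbols, and all 6 were found among the 49585 genes of the deposited table. The 6 were picked with results of these libraries known, and which of the comparisons was used for that is not recorded. Every difference of a member between groups is therefore given as a description, with its standard error and no test.

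RNA was sequenced from whole lungs of C57BL/6 mice in 4 groups of 3 libraries. Wild-type (WT) mice received saline or were sensitized to and intranasally challenged with ovalbumin (OVA), the egg protein used to set off allergic airway inflammation, and mice labelled Has2+/- KO received the same 2 treatments. Has2 encodes a hyaluronan synthase, and Has2+/- mice keep 1 intact copy. The challenged libraries are titled 24 after OVA, with no unit of time, and the labels used here state neither age nor sex. They give no cell type for the Has2 allele, no design of the allele and no statement on pooling, and nothing says that libraries of a group came from separate animals, so p-values measure the spread between these libraries only.

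The CLEC2 lectins and the KLRB1 receptors (also called NKR-P1) are neighbours in the genome and partners at the cell surface. Clec2d encodes Clr-b, a lectin found widely on healthy cells, which the inhibitory receptor encoded by Klrb1b recognises, so that an NK cell is held back from a cell that displays it. Clec2i encodes Clr-g, which the receptor encoded by Klrb1f binds, and Klrb1c encodes NK1.1, an activating receptor that signals through the Fcer1g adaptor and is the usual marker of NK cells in C57BL/6 mice. Clec2g encodes a further lectin of the same family.

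All 6 genes are protein coding and lie within 408 kb of chromosome 6 (mm10, GENCODE M21 annotation). Klrb1c (ENSMUSG00000030325, chr6:128778485-128789215) and Klrb1b (ENSMUSG00000079298, chr6:128813706-128826331) are on the minus strand. Clec2i (ENSMUSG00000030365, chr6:128887588-128898167), Clec2g (ENSMUSG00000000248, chr6:128934381-128984707), Klrb1f (ENSMUSG00000030154, chr6:129045901-129057464) and Clec2d (ENSMUSG00000030157, chr6:129180615-129186534) are on the plus strand. The same-strand gene Gm44511 shares 599 exonic bases with Klrb1b and 413 with Klrb1c. It was listed at 0 in 10 of the 12 libraries, at 4.50 in 1 Has2+/- saline library and at 1.92 in 1 Has2+/- OVA library. Genes that overlap Clec2g, Clec2i and Klrb1f lie on the opposite strand and share 0 exonic bases with them.

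The coding sequences are alike enough for short reads to fit more than 1 member, which is why the runs that the members share are shown. Over aligned coding bases, Clec2d was 89.8% identical to Clec2g and 84.6% identical to Clec2i, and Klrb1b was 85.8% identical to Klrb1c but 70.5% identical to Klrb1f. Of the 594 windows of 31 bases in the coding part of Clec2d, 46 (7.7%) occur unchanged in Clec2g and 68 (11.4%) in Clec2i. Of the 642 windows of Klrb1b, 109 (17.0%) occur in Klrb1c, and Klrb1f shared 0 with any other member. The longest run shared by Clec2d and Clec2g is 61 bases, at coding positions 418 to 478 of Clec2d, 607 to 667 of Clec2g and, with 1 difference, 541 to 601 of Clec2i. The longest run shared by Klrb1b and Klrb1c is 75 bases, at coding positions 372 to 446 of Klrb1b, 516 to 590 of Klrb1c and 372 to 446 of Klrb1f, where Klrb1f has 19 differences. Sequences are the sense strand of GENCODE M21 transcripts, 5′ to 3′, positions are counted from 1 at the start codon, and capitals mark bases that differ from the first gene of each set.
Clec2d: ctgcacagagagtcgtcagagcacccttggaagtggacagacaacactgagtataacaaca
Clec2g: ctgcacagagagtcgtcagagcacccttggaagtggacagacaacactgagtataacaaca
Clec2i: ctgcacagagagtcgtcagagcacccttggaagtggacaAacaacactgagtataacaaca
Klrb1b: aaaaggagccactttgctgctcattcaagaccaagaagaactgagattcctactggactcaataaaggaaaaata
Klrb1c: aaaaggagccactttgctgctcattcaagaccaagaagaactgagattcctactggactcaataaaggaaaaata
Klrb1f: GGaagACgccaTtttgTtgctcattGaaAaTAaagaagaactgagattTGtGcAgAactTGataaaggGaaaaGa
How the authors assigned reads that fit both genes of a pair is not stated in the labels or the table, so levels of Clec2g and Clec2i beside the far higher Clec2d, and of Klrb1b beside the higher Klrb1c, are uncertain to that extent.

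Values are the authors' normalized signal per gene. The sorted values are the same in all 12 libraries, so each library sums to 6852201, and sequencing depth cannot be read from them. Of the 49585 genes, 26190 were at 0 throughout and 19017 reached a mean of 1 in any group and were tested. All 6 members were among those. Libraries were alike, with Spearman correlations of 0.971 to 0.990 within groups and 0.954 to 0.990 between groups. By mean correlation with its own group, WT OVA library 3 was lowest (0.972, numbered within a group by table order). WT OVA library 1 (0.979) and Has2+/- saline library 3 (0.980) came next. Has2 itself was at 5.72 ± 1.17 in WT saline, 6.72 ± 3.39 in WT OVA, 7.75 ± 0.382 in Has2+/- saline and 7.89 ± 2.95 in Has2+/- OVA lungs (SD, n = 3 each). It was not lower in the libraries labelled Has2+/-, so every genotype direction rests on the labels alone and on how the column codes were read. Under saline, Has2 was higher in Has2+/- than in WT libraries without overlap (log2 difference 0.39, SE 0.41), as were 7.04% of tested genes. Whether the measured exons lie inside the deleted part is not stated. Markers of alveolar type 2 and club cells were abundant in every library, with summed values of at least 116640 and 62436. Throughout, a fold change is a difference of log2(value + 1) between group means, and ± is the SD of 3 libraries unless a standard error (SE) is named.

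Clec2d, the ligand of the inhibitory receptor, was the most abundant member by far, and it was higher in libraries labelled Has2+/- than in WT under both treatments. The 3 WT saline libraries were at 776, 725 and 679 (mean 726.5 ± 48.8). The 3 WT OVA libraries were at 504, 494 and 463 (mean 487 ± 21.3). The 3 Has2+/- saline libraries were at 1134, 1156 and 1049.5 (mean 1113 ± 56.1), and the 3 Has2+/- OVA libraries at 1075, 950.5 and 988 (mean 1005 ± 63.7). In order of level, WT OVA was lowest, WT saline next, and the Has2+/- groups highest. The highest WT library stood below the lowest Has2+/- library, and only the Has2+/- saline and Has2+/- OVA values overlapped.

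The genotype difference in Clec2d was 0.62 on the log2 scale under saline (SE 0.07, 1.53-fold) and 1.04 under OVA (SE 0.07, 2.06-fold), and the groups did not overlap in either case. Among all tested genes, the groups did not overlap, with Has2+/- higher, in 7.04% under saline and in 10.4% under OVA. Averaged over the treatments it was 0.83 (SE 0.05, 1.78-fold), with 6 of 6 Has2+/- libraries above 6 of 6 WT libraries, against 0.431% of tested genes that did the same. Among the 9311 genes whose mean reached 100, Clec2d had rank 6 for being higher in Has2+/- and rank 40 by size in either direction. Among the 17826 genes whose mean reached 1, it had ranks 174 and 454. Since the comparison that chose the members is not recorded, nothing further is read from these ranks.

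The OVA difference in Clec2d was larger in WT than in Has2+/- lungs. In WT lungs, Clec2d was lower after OVA by a log2 difference of -0.58 (SE 0.07), with no overlap between groups, against 17.6% of tested genes that were lower without overlap. In Has2+/- lungs the difference was -0.15 (SE 0.07) and the groups overlapped. The difference between these 2 differences was 0.43 (SE 0.10). In bulk lung RNA, fewer cells that carry a transcript and less of it per cell cannot be told apart.

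**Figure D1:**
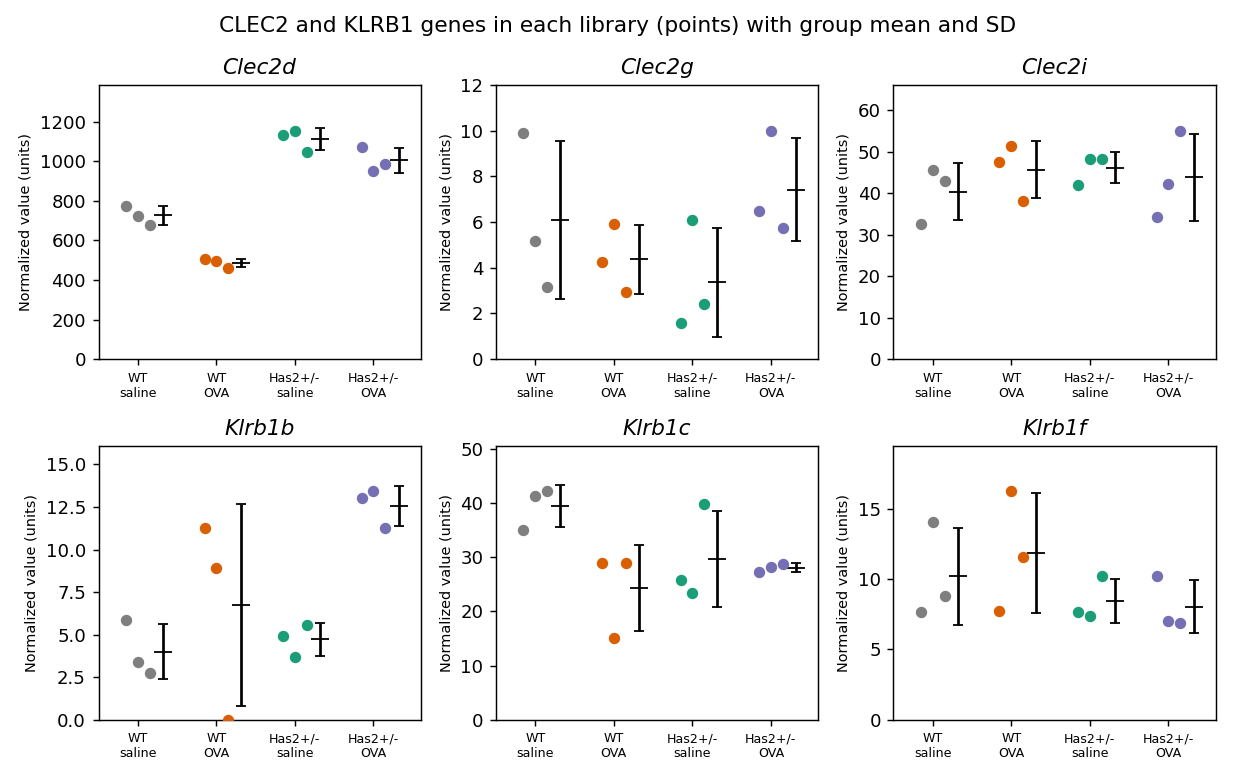
Normalized value of each of the 6 members in each library (y axis, authors' normalized signal, a linear scale from 0 set for each gene) by group (x axis); points are libraries, with the group mean and SD. Clec2d sits between 463 and 1156 with both Has2+/- groups above both WT groups, while no other member passes 56.

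The other lectin that a member receptor binds, Clec2i, showed no separation between groups. It was at 32.7, 45.7 and 42.8 in WT saline and at 47.5, 51.4 and 38.1 in WT OVA libraries. It was at 41.9, 48.3 and 48.2 in Has2+/- saline and at 34.2, 42.2 and 55.1 in Has2+/- OVA libraries. All 4 groups overlapped, and the log2 differences lay between -0.10 and 0.20 (SE 0.21 each).

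Clec2g was low, and its groups overlapped too. Values were 9.92, 5.17 and 3.17 in WT saline and 4.25, 5.92 and 2.92 in WT OVA libraries. In Has2+/- libraries they were 1.58, 6.08 and 2.42 under saline and 6.50, 10 and 5.75 after OVA. The lowest Has2+/- OVA library, at 5.75, stood below the highest Has2+/- saline library, at 6.08. The log2 difference by OVA was 1.05 in Has2+/- and -0.33 in WT lungs (SE 0.48 each), and the difference between them was 1.38 (SE 0.68).

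Clec2d made up most of the family's signal. Of the summed value of Clec2d to Clec2j (7 CLEC2 genes, without Clec2l, which lies outside the complex), Clec2d took from 89.2% in a WT OVA library to 96.3% in a Has2+/- OVA library. Per kb of exon, Clec2d was at 599 in WT saline, 401 in WT OVA, 918 in Has2+/- saline and 828 in Has2+/- OVA lungs. On the same per-kb scale, Clec2i was at 13 to 14.8 and Clec2g at 1.18 to 2.61 across the group means.

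Klrb1b, the inhibitory receptor for the Clec2d product, was highest in the Has2+/- OVA libraries, at 13, 13.4 and 11.2 (mean 12.6 ± 1.15). The Has2+/- saline libraries were at 4.92, 3.67 and 5.58 (mean 4.72 ± 0.973), so OVA was higher without overlap, by a log2 difference of 1.26 (SE 0.71), against 13.2% of tested genes. The WT saline libraries were at 5.83, 3.42 and 2.75 (mean 4 ± 1.62). The WT OVA libraries were at 11.2 and 8.92, and the third was listed at 0. Both nonzero WT OVA libraries stood above every saline library, and the library at 0 stood below them all. The log2 difference by OVA in WT lungs was 0.03 with all libraries and 1.19 without the one at 0. The genotype difference under OVA was 1.45 with all libraries and 0.29 without that one, so 1 library sets both values. That library was also the WT OVA library least like its group.

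Klrb1c, which encodes the NK1.1 receptor, was lower after OVA in WT lungs. Its groups overlapped for OVA in Has2+/- lungs and for genotype under either treatment. It was at 35.0, 41.2 and 42.2 in WT saline (mean 39.5 ± 3.90) and at 29.0, 15.2 and 28.9 in WT OVA libraries (mean 24.4 ± 7.96). The groups did not overlap, the log2 difference was -0.73 (SE 0.27), and 17.6% of tested genes were lower in this way. Without the library at 15.2 the log2 difference was -0.43. Has2+/- libraries were at 25.8, 23.4 and 39.8 under saline and at 27.3, 28.2 and 28.8 after OVA, a log2 difference of -0.04 (SE 0.27) with overlap. The difference between the 2 OVA differences was 0.69 (SE 0.38).

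Klrb1f, the receptor for the Clec2i product, overlapped in all 4 groups. It was at 7.67, 14.1 and 8.83 in WT saline, 7.75, 16.2 and 11.6 in WT OVA, 7.67, 7.42 and 10.2 in Has2+/- saline and 10.2, 7 and 6.92 in Has2+/- OVA libraries. Its log2 differences lay between -0.47 and 0.19 (SE 0.36 each). Per kb of exon, the group means of the receptors were 8.23 to 13.3 for Klrb1c, 3.98 to 5.86 for Klrb1f and 1.80 to 5.64 for Klrb1b, all far below Clec2d on that scale. Klrb1c took between 34.2% and 75.8% of the summed value of the 5 KLRB1 genes in a library.

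**Figure D2:**
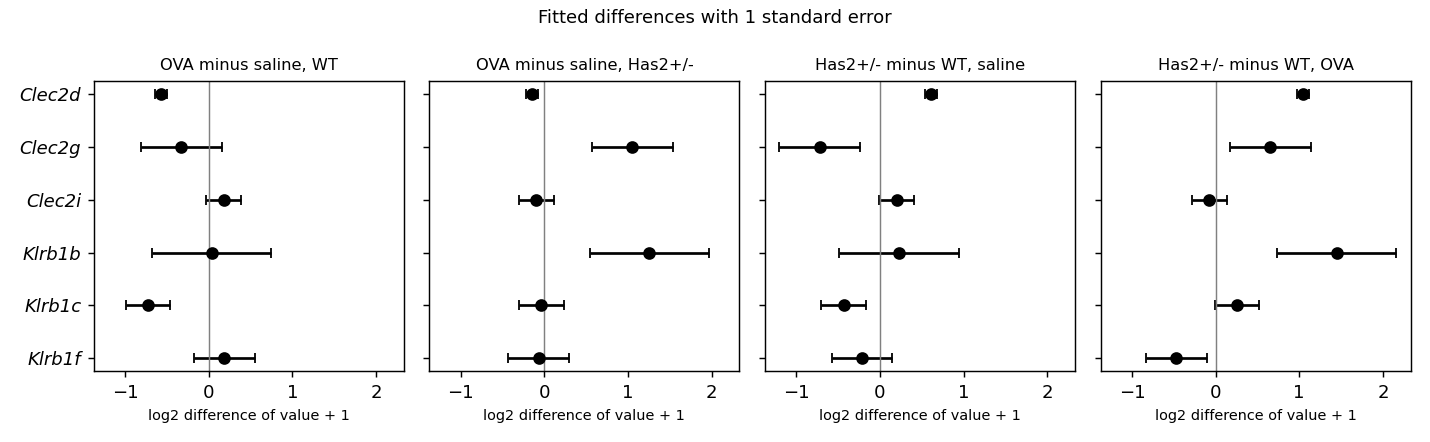
Difference of each member between groups on the log2(value + 1) scale (points, with bars of 1 standard error) for the OVA difference in each genotype and the genotype difference under each treatment. Clec2d lies at 0.62 and 1.04 in the genotype differences, and the widest bars, with an SE of 0.71, belong to Klrb1b.

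Counting the members by comparison, 2 of 6 (Clec2d and Klrb1c) were lower without overlap after OVA in WT lungs and 0 were higher, against 17.6% and 16.2% of tested genes. In Has2+/- lungs 1 of 6 (Klrb1b) was higher after OVA and 0 were lower, against 13.2% and 11% of tested genes. Between genotypes, Clec2d was the 1 member of 6 that was higher without overlap, under each treatment, against 7.04% of tested genes under saline and 10.4% under OVA. By the same measure 0 were lower, against 6.32% under saline and 7.13% under OVA. Over the 12 libraries the Pearson correlation of Clec2d with the others was 0.35 for Klrb1b, 0.14 for Klrb1c, 0.04 for Clec2g, -0.02 for Clec2i and -0.51 for Klrb1f, as a description of libraries that share groups.

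The remaining CLEC2 and KLRB1 genes were near the lower end of the measurable range. Of 8 listed, 7 were in the table and 5 had a high enough mean to be tested (Clec2e, Clec2f, Clec2h, Clec2l and Klrb1a). Their highest values in any library were 2.5, 3.58, 8.25, 5.17 and 9.17. Clec2j and Klrb1 did not pass the filter, with highest values of 0.917 and 1.08. By limma's test with Benjamini-Hochberg adjustment over all tested genes, 0 of the 5 passed an adjusted p of 0.05 in any comparison, and at an unadjusted p under 0.05 there was 1, Clec2e, lower after OVA in Has2+/- lungs. In WT OVA against saline the same test called 8.65% of all tested genes higher and 8.05% lower. In Has2+/- lungs it called 1.85% higher and 0.952% lower. Between genotypes it called 0.0105% higher and 0% lower under saline, and 0.589% and 0.363% under OVA. For the difference between the 2 OVA differences it called 0.00526% higher and 0.0105% lower. As the background of counts at an unadjusted p under 0.05, 14.5% of all tested genes were higher and 15.6% lower by that measure after OVA in WT lungs, and 10.5% and 8.88% in Has2+/- lungs. For genotype these shares were 2.61% and 3.01% under saline, 9.62% and 6.43% under OVA, and 7.91% and 5.32% averaged over treatments.

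The other receptors of the NK complex (the Klra, Klrc, Klri and related genes and Cd69, an early activation marker of lymphocytes) gave no calls either. Of 22 listed genes, 21 were in the table and 20 were tested, with 0 past the threshold of limma's test in any comparison. Before adjustment, 3 had a p under 0.05 and were higher after OVA in WT lungs and 1 in Has2+/- lungs, 1 was higher and 1 lower between genotypes under saline, and 0 differed between genotypes under OVA. The median log2 difference of the 20 was 0.15 for OVA in WT and 0.49 for OVA in Has2+/- lungs, and -0.16 and 0.15 for genotype under saline and OVA, while the medians of all tested genes were -0.03, 0.01, 0.00 and 0.01. Cd69 differed by 0.73 after OVA in WT lungs (SE 0.30, limma adjusted p = 0.105). Klrk1, which encodes the activating receptor NKG2D, differed by 0.40 (SE 0.24, limma adjusted p = 0.272).

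Markers of NK cells themselves were present in every library, with the chemokine gene Xcl1 and the cytokine receptor gene Il2rb higher after OVA in WT lungs. Of 16 listed markers, 15 were in the table and tested. Xcl1, a chemokine made by NK and T cells, rose from 0.861 ± 0.315 in WT saline to 13.2 ± 6.07 in WT OVA lungs (log2 difference 2.87, limma adjusted p = 0.0007). Il2rb, a receptor chain for interleukins 2 and 15, rose from 179 ± 23.2 to 282 ± 53.3 (log2 difference 0.64, limma adjusted p = 0.0352). The Xcl1 call held in all 19 alternatives. The Il2rb call was lost in 7 of them, namely without the trend and robust steps and without WT OVA library 1 or 2, WT saline library 2 or 3, Has2+/- OVA library 2 or Has2+/- saline library 1 (numbered within a group by table order), with limma adjusted p from 0.0140 to 0.132 over the 19. These 2 of 15 were the calls in WT lungs and none fell, against 8.65% and 8.05% of all tested genes. In each of the other comparisons 0 of 15 passed. At an unadjusted p under 0.05, 2 were higher and 1 lower after OVA in WT lungs, against 14.5% and 15.6% of all tested genes. By that measure 1 was higher after OVA in Has2+/- lungs, 1 was higher and 2 lower between genotypes under saline, and 0 differed under OVA. The medians of the 15 were 0.09, 0.36, -0.24 and -0.14 in the same order of comparisons.

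Among the 15 NK markers, 9 had a difference above 0 after OVA in WT lungs and 6 below 0, so the list holds both directions beside the lower Klrb1c. Ncr1, which encodes the NK receptor NKp46, was at 57.5, 43.6 and 42.2 in WT saline and at 33.2, 35.0 and 31 in WT OVA libraries (limma adjusted p = 0.164). These groups did not overlap, and 17.6% of tested genes were lower in this way, while Xcl1 and Il2rb were higher without overlap. The WT values of Ncr1 stand beside those of the other genotype. Ncr1 was at 35.2, 25.8 and 42.2 in Has2+/- saline and at 33.8, 59.4 and 38.9 in Has2+/- OVA libraries. Gzma, a granule protease of NK and cytotoxic T cells, was at 114 ± 28.1 in WT saline, 87.0 ± 9.28 in WT OVA, 86.3 ± 19.5 in Has2+/- saline and 109 ± 10.4 in Has2+/- OVA lungs. Nkg7, a granule protein gene of the same cells, was at 60.3 ± 21.9, 70.0 ± 4.36, 45.3 ± 13.9 and 62.2 ± 12.8 in that order of groups. Gzmb, another granule protease, was at 41.1 ± 12.0, 51.4 ± 17.7, 34.1 ± 5.92 and 44.8 ± 14.4, and Eomes, a transcription factor of NK cells, at 32.9 ± 11.1, 41.7 ± 16.3, 24.8 ± 11.6 and 38.2 ± 17.3. None of these 5 passed limma's test for OVA in WT lungs. The summed NK marker value ran from 672 to 1004 in WT saline, 823 to 1037 in WT OVA, 494 to 748 in Has2+/- saline and 754 to 918 in Has2+/- OVA libraries. The part of NK cell number in the values of the members was not tested.

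**Figure D3:**
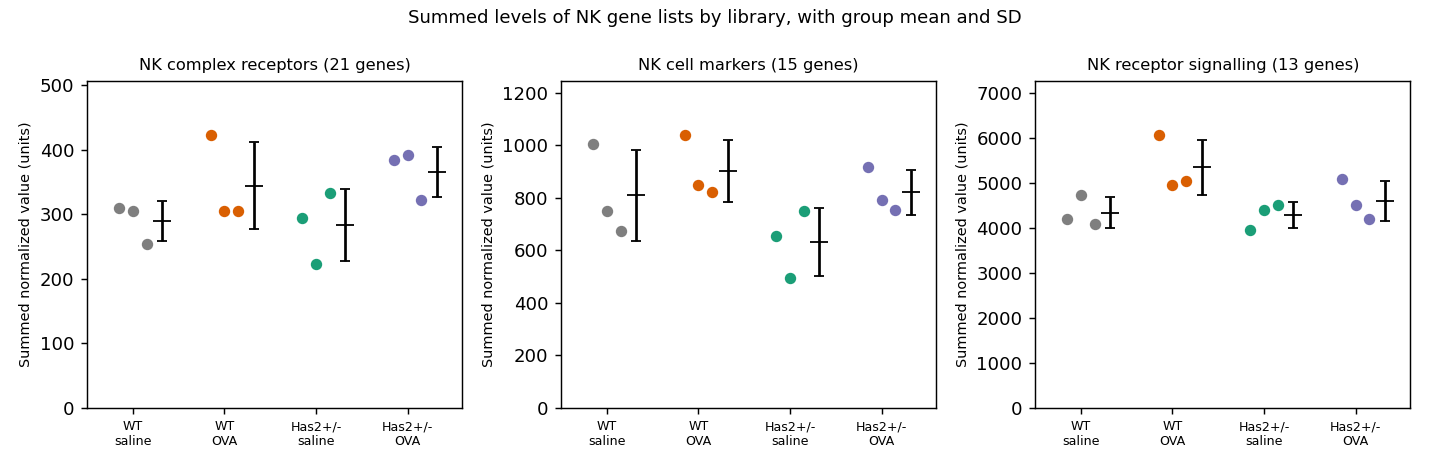
Summed normalized value of the other NK complex receptors, the NK cell markers and the NK receptor signalling genes in each library (y axis, authors' normalized signal) by group (x axis); points are libraries, with the group mean and SD. The marker sums run from 494 to 1037 and overlap between the genotypes under each treatment.

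Signalling genes downstream of these receptors were next. Of 13 tested adaptors, kinases and phosphatases, 6 rose after OVA in WT lungs and 0 fell, against 8.65% and 8.05% of all tested genes. The median log2 difference of the 13 was 0.44. Fcer1g, the adaptor through which NK1.1 signals and a part of Fc receptors on myeloid cells, rose from 183 ± 40.2 to 335 ± 49.6 (log2 difference 0.88, limma adjusted p = 0.0123). Lat2, an adaptor of lymphoid and mast cells, rose from 58.1 ± 17.6 to 119 ± 40.7 (log2 difference 1.01, limma adjusted p = 0.00711). Vav1, an exchange factor of blood cells, rose from 245 ± 25.5 to 477 ± 79.2, and Zap70, a kinase of T and NK cells, from 80.3 ± 20.4 to 120.3 ± 13.7, with limma adjusted p = 0.0013 and 0.0205. Without WT OVA library 1 or without WT saline library 3, 2 of the 13 passed. Lat2 and Vav1 kept their calls in all 19 alternatives. Fcer1g lost its call without either of those libraries (limma adjusted p up to 0.0554), and Zap70 without either of them or WT saline library 2 (up to 0.112). In the other comparisons 0 passed in limma's test. At an unadjusted p under 0.05 these were 2 higher after OVA in Has2+/- lungs, 1 lower between genotypes under saline and 4 lower under OVA. The shares of all tested genes were 10.5%, 3.01% and 6.43% in that order. Most of these genes are used by many blood cells, and they do not single out NK cells.

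Of 12 genes for cytokines and receptors that activate NK cells, 2 rose after OVA in WT lungs, where 8.65% of all tested genes were called higher. Il12rb1, a receptor chain for interleukins 12 and 23, rose from 15.9 ± 9.60 to 47.8 ± 8.71 (log2 difference 1.67, limma adjusted p = 0.00342). Il2rg, the shared receptor chain of several interleukins, rose from 101 ± 19.6 to 154 ± 24.7 (log2 difference 0.61, limma adjusted p = 0.0109). Of 13 tested ligands of other NK receptors, H2-K1, a classical class I molecule, rose with a log2 difference of 0.85 (limma adjusted p = 0.0471). Cd48, the ligand of receptor 2B4, rose with a log2 difference of 0.51 (limma adjusted p = 0.0273). Neither list had a gene past the threshold in the other comparisons. At an unadjusted p under 0.05, 3 of 12 and 6 of 13 genes were higher after OVA in Has2+/- lungs, against 10.5% of all tested genes. The Il12rb1 call held in every alternative. Il2rg lost its call without WT OVA library 1 or WT saline library 2 or 3 (limma adjusted p up to 0.0631), and Cd48 without WT OVA library 1 or 2 or WT saline library 3 or with 2 groups in the fit (up to 0.136). The H2-K1 call held in 9 of 19 alternatives and was lost, among others, without any 1 WT saline library or WT OVA library 1 or 2 (up to 0.16). The 2 lists had medians of 0.04 and 0.51 for OVA in WT lungs, and with 1 library left out they had 1 to 5 and 0 to 4 calls there.

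The genes around the members were compared between genotypes to see whether the difference of Clec2d extended along the chromosome. Within 1 Mb of the span from Klrb1c to Clec2d, 118 other genes were in the table and 53 were tested. The nearest tested genes to the start of Clec2d were 2310001H17Rik, centred 43.0 kb downstream, which was at 77.0 ± 5.83 in WT and 84.7 ± 13.4 in Has2+/- saline lungs, Clec2e and Cd69. With genotype averaged over treatments, 0 of the 53 passed limma's test, against 0.226% of all tested genes called higher and 0.195% lower, and before adjustment 6 higher and 1 lower had a p under 0.05, against 7.91% and 5.32% of all tested genes. The log2 differences of the 53 ran from -0.49 to 1.13, with a median of 0.09. Under saline 0 passed, with 2 higher and 1 lower unadjusted, against 2.61% and 3.01% of all tested genes. Under OVA 1 rose, Clec9a, a lectin receptor of cross-presenting dendritic cells, at 273 ± 25.7 in WT and 383 ± 24.2 in Has2+/- lungs (log2 difference 0.49, limma adjusted p = 0.0425). That call held in 8 of 19 alternatives and was lost, among others, without WT OVA library 1 or 2 or Has2+/- OVA library 2 or 3 (limma adjusted p up to 0.157). Of all tested genes 0.589% were called higher under OVA. Before adjustment 6 of the 53 were higher and 0 lower, against 9.62% and 6.43% of all tested genes. Besides Clec9a they were Clec12b (1.08), Clec1b (0.50), Clec1a (0.46) and Gabarapl1 (0.29), centred 200 to 357 kb downstream, and BC035044 (0.95) at -310.5 kb. Clec12a and Clec7a, at 173 and 287 kb, differed by -0.24 and -0.40. Of the 53 differences, 34 were above 0 and 19 below.

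In the same stretch 4 of 53 genes rose and 5 fell after OVA in WT lungs, near the 8.65% and 8.05% of all tested genes, so the counts do not set the stretch apart. The 5 with the greatest change are given. Clec7a, which encodes the fungal glucan receptor Dectin-1, rose from 238 ± 69.6 to 697 ± 327 (log2 difference 1.49, limma adjusted p = 0.029). Clec12a, an inhibitory myeloid lectin, rose from 52.7 ± 2.72 to 115 ± 20.7 (log2 difference 1.10, limma adjusted p = 0.0013), and Foxm1, a cell cycle factor, from 63.4 ± 3.53 to 109 ± 9.92 (log2 difference 0.77). The Clec12a, Foxm1 and Clec1b calls held in all 19 alternatives, and the Clec7a and Clec12b calls in 14 each, lost among others without WT OVA library 1 or WT saline library 3 (limma adjusted p up to 0.104 and 0.143). Clec12b fell from 20.8 ± 10.6 to 6.50 ± 1.17, and Clec1b, the platelet receptor CLEC-2, from 83.7 ± 1.65 to 50.3 ± 3.12, with log2 differences of -1.44 and -0.73. In Has2+/- lungs 0 of the 53 passed after OVA, and before adjustment 3 higher and 2 lower had a p under 0.05.

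**Figure D4:**
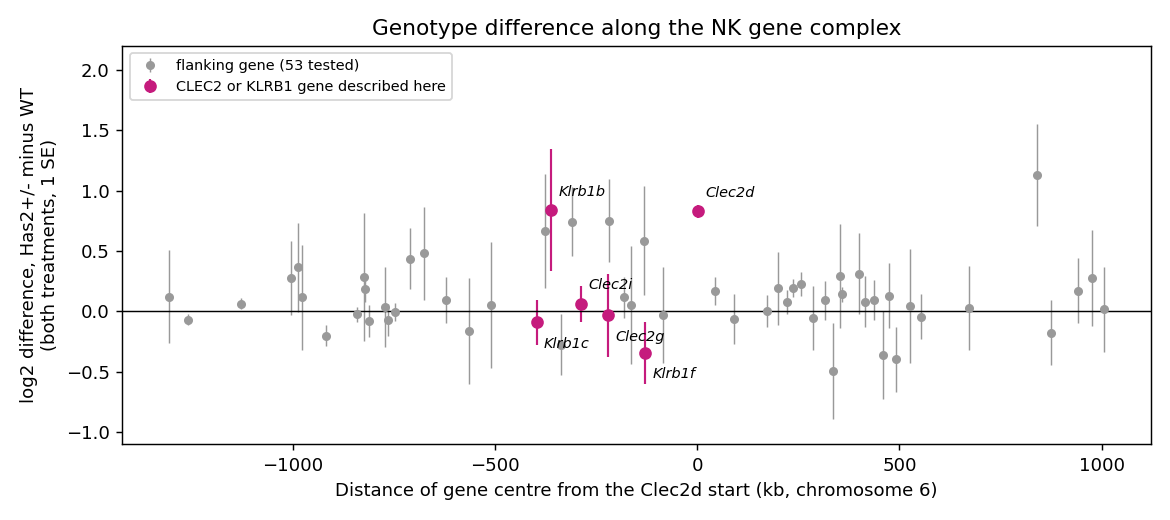
Genotype difference averaged over treatments (y axis, log2(value + 1), Has2+/- minus WT, bars of 1 standard error) against distance from the start of Clec2d (x axis, kb) for the 6 members and the tested genes within 1 Mb. Clec2d lies at 0.83 with a narrow bar, and Klrb1b at 0.84 with an SE of 0.50. The 53 other genes run from -0.49 to 1.13, with a median of 0.09.

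The genes whose values followed Clec2d most closely were outside its family. Over the 12 libraries, the 5 tested genes with the highest Pearson correlation with Clec2d on the log2 scale were Atf7ip (0.94), Rbm5 (0.93), Zfp433 (0.93), Zfp110 (0.93) and Ccnt2 (0.93). Atf7ip also lies on chromosome 6, and the others lie on chromosomes 9, 10, 7 and 1. Zfp433, a zinc finger gene, was at 58.1 ± 5.15 in WT saline, 37.4 ± 2.60 in WT OVA, 75.1 ± 4.35 in Has2+/- saline and 81.2 ± 5.83 in Has2+/- OVA lungs. Rbm5, which encodes an RNA-binding splicing factor, was at 1003 ± 16.3, 843 ± 33.2, 1088 ± 30.9 and 1076 ± 57.9 in the same order. Its range was much narrower than that of Clec2d. For Klrb1c, the closest were Tmem232 (0.92), Rev1 (0.90), Ift122 (0.88), Tbata (0.87) and Lrrc71 (0.87). The NK genes Ncr1, Gzma and Nkg7 had correlations of 0.45, 0.47 and -0.10 with Klrb1c. These correlations are picked from all tested genes over libraries that share 4 group means, and they carry no test.

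**Figure D5:**
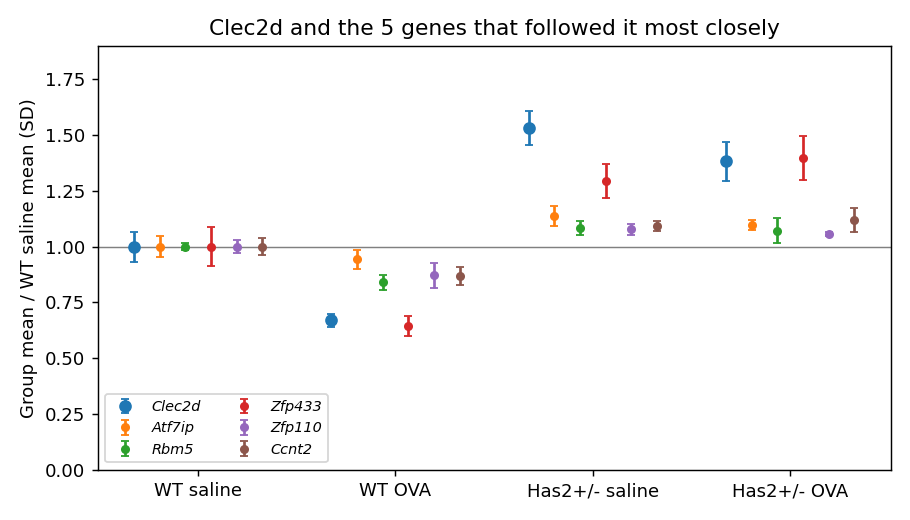
Group mean of Clec2d and of the 5 genes most like it, divided by the gene's own mean in WT saline lungs (y axis, with SD), by group (x axis). In each gene shown, the WT OVA group is lowest and both Has2+/- groups lie above the WT saline group.

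Markers of other lung cell types changed with OVA in WT lungs, and those values stand beside the WT OVA differences of Clec2d and Klrb1c. Limma's test called 8.65% of all tested genes higher and 8.05% lower there. By that test, 6 of 12 T cell markers rose, among them Icos, a costimulatory receptor (20.6 ± 7.66 to 58.4 ± 7.77, limma adjusted p = 0.00868). Of 8 endothelial markers 4 fell, and of 6 club cell markers 2 fell. Of 7 alveolar type 1 markers 1 rose and 3 fell, of 8 alveolar type 2 markers 1 rose, and of 8 B cell and 8 neutrophil markers 1 each fell. Of 9 markers of group 2 innate lymphoid cells and of 8 of alveolar macrophages, 2 rose and 2 fell in each list, and of 8 dendritic cell markers 2 rose and 1 fell. Summed endothelial marker values were 32639 to 34598 in WT saline and 29468 to 31775 in WT OVA libraries, and summed T cell marker values 460 to 701 and 717 to 975. The medians of the T cell and endothelial lists were 0.60 and -0.24. These counts rest on few libraries. With WT OVA library 1 or WT saline library 3 left out, 1 T cell marker passed, and with WT OVA library 2 or WT saline library 2 left out, 2 did. With any 1 library left out, calls in either direction numbered 2 to 5 for endothelium and for alveolar type 1 cells, 0 to 3 for alveolar type 2 cells, 2 to 3 for club cells and 1 to 4 for innate lymphoid cells. They numbered 2 to 5 for alveolar macrophages, 3 to 6 for dendritic cells, 0 to 2 for B cells and 0 to 1 for neutrophils. The Icos call held in all 19 alternatives.

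Between genotypes under saline, where Clec2d differed by 0.62, 0 genes of any of these lists passed limma's test. At an unadjusted p under 0.05 the alveolar macrophage list had 2 higher and 2 lower, endothelium 1 higher and 1 lower, alveolar type 2 cells 2 higher, and neutrophils and club cells 1 lower each. Under OVA, where Clec2d differed by 1.04, 3 genes passed, while 0.589% of all tested genes were called higher. They were the dendritic cell markers Cd209a (log2 difference 1.19, limma adjusted p = 0.022) and Clec9a and the alveolar type 2 marker Lamp3 (0.29, limma adjusted p = 0.0366). The calls held in 12, 8 and 7 of 19 alternatives, and all were lost without WT OVA library 1 or 2, with limma adjusted p up to 0.14, 0.157 and 0.215. Summed T cell marker values under saline were 460 to 701 in WT and 561 to 712 in Has2+/- libraries, and summed endothelial values 32639 to 34598 and 34535 to 35168. Under OVA they were 717 to 975 and 686 to 846 for T cells and 29468 to 31775 and 29558 to 33102 for endothelium. Before adjustment, 4 of 8 alveolar type 2 markers had a p under 0.05 and were higher in Has2+/- lungs under OVA, and all 8 differences were above 0 (median 0.15). Endothelium had 3 higher and 1 lower by that measure, innate lymphoid and dendritic cells 2 higher each, alveolar type 1 cells 1 higher, and dendritic cells and alveolar macrophages 1 lower each. The 6 club cell differences were all above 0 (median 0.38), and 0 had an unadjusted p under 0.05. In Has2+/- lungs after OVA, 1 T cell, 1 innate lymphoid, 1 alveolar macrophage and 2 alveolar type 2 markers rose and none of the other lists had a call. Of all tested genes 1.85% were called higher there. The T cell call (Cd28) held in 4 of 19 alternatives and the macrophage call (Chil3) in 6, both lost, among others, without any 1 Has2+/- library, with limma adjusted p up to 0.204 and 0.171. Those of Il1rl1, Sftpa1 and Lamp3 held in 15, 14 and 18. The part of cell composition in the Clec2d values was not tested.

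A list of 10 markers of squamous epithelium, with Krt5, Krt14 and Krt15 among them, split the libraries in another way. Its summed value was between 24107 and 36900 in 2 WT saline and 2 Has2+/- saline libraries and was 29216 in 1 WT OVA library. It was 2057 in the remaining WT saline and 175 in the remaining Has2+/- saline library, and 35.9 to 411 in the other 5. Clec2d was at 725 in the low WT saline library, between the other values of 776 and 679. It was at 1049.5 in the low Has2+/- saline library, below the others at 1134 and 1156, and at 463 in the high WT OVA library, below the others at 504 and 494. The WT OVA library with the high sum is the one in which Klrb1b was listed at 0. With all libraries, 0 of the 10 genes passed limma's test in any comparison by OVA or genotype, and 0 did at an unadjusted p under 0.05, with median log2 differences by OVA of -3.23 in WT and -3.39 in Has2+/- lungs. Without that WT OVA library, 4 of the 10 passed for OVA in WT lungs. With it and the Has2+/- saline library of low sum left out together, 7 passed in WT and 5 in Has2+/- lungs. The part of this tissue in the members' values was not tested.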

How the data were processed

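RNA from 12 lung libraries (500 ng of total RNA, rRNA depletion and poly-A selection both named, strand-specific libraries, per the labels' protocols) was summarised by the authors as 1 deposited table of normalized signal per gene. The genome build was mm10, per the submitters' processing notes. The aligner, counter and treatment of reads that fit several genes are not stated there. The deposited signal is quantile normalized as far as its values show: the 12 sorted columns are identical and every value is a multiple of one twelfth. Such values hold no depth, so no counting interval is given, and a shift shared by all genes of a library is removed. Column names carry a group code (AWO, AWC, AHO or AHC) but not the sample. W or H was read as WT or Has2+/-, and O or C as OVA or saline control. Libraries are therefore named by that group and by table order.

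With R 4.3.3 and limma 3.58.1, 1 mean per group was fitted to log2(value + 1) of 19017 genes whose mean reached 1 in any group (trend and robust moderation, 8 residual degrees of freedom). Tests were two-sided with Benjamini-Hochberg adjustment over all tested genes within a comparison, at 0.05. The steps were tested on simulated data. Members and gene lists were chosen with earlier results of these data known. The text names all members, every tested gene of the remaining CLEC2 and KLRB1 list, and Has2, with Krt5, Krt14 and Krt15 as examples of the squamous list. It names at most 4 called genes with the greatest change from each other list and 5 flanking genes per comparison, and the 5 genes most correlated with Clec2d and with Klrb1c. Cd69, Klrk1, Ncr1, Gzma, Nkg7, Gzmb, Eomes, 2310001H17Rik, Clec1a, Gabarapl1 and BC035044 were named after their values were seen. Of the table's identifiers, 49326 matched GENCODE M21, and 45091 had the same coordinates there. Alternatives were other pseudocounts (0.1 and 5), a group mean of at least 10 or no filter, no trend or robust step, fits of the compared groups alone, and leaving libraries out. Deposited columns of test statistics and transformed values were not used here.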

Additional observations from a re-analysis of the deposited data

Results flagged for a closer look

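In 5 listed genes the groups differed without overlap in opposite directions, either by genotype under the 2 treatments or by OVA in the 2 genotypes. That opposition was not tested as such, and limma's interaction test did not pass its threshold in any of the 5. They were found by a search of the members, the listed genes and the tested flanking genes. The share of all tested genes that did the same was not counted, so nothing is read from their number. In a single comparison, 6.32% to 17.6% of tested genes did not overlap in a given direction. Xcl1 was at 1, 0.5 and 1.08 in WT saline and at 20.2, 9.5 and 10 in WT OVA libraries. In Has2+/- libraries it was at 2.33, 2.25 and 4.92 under saline and at 8.08, 7.5 and 4.42 after OVA. Has2+/- was thus above WT under saline and below it after OVA, with an interaction of -1.97 on the log2 scale (limma adjusted p = 0.439). Clec1b, a flanking gene, was lower in Has2+/- than in WT libraries under saline and higher after OVA, with an interaction of 0.83 (limma adjusted p = 0.291). Cd209a, a dendritic cell marker, was higher after OVA in Has2+/- and lower in WT libraries, with an interaction of 1.05 (limma adjusted p = 0.428). Ccr7, a homing receptor of migrating dendritic cells, was higher in Has2+/- under saline and lower after OVA, with an interaction of -0.42 (limma adjusted p = 0.497). Cidec, a lipid droplet gene in the alveolar macrophage list, was lower in Has2+/- under saline and higher after OVA, with an interaction of 1.54 (limma adjusted p = 0.334).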

How the results depend on the processing

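Of 666 recomputed differences over 36 member values, 658 lay within 1 SD between replicates of the main value and 8 moved further. Many of them could not move. The filter, the trend and robust steps and libraries of groups outside a comparison leave a difference of group means as it is. Leaving out 1 library of 3 seldom moves a mean by 1 SD, so that count does not measure stability, and the ranges are given. Some differences near 0 changed sign, such as Clec2g for OVA in WT lungs (-0.65 to 0.04). Clec2d ranged from -0.62 to -0.53 for OVA in WT and from -0.20 to -0.11 in Has2+/- lungs, from 0.57 to 0.66 and 0.99 to 1.08 for genotype under saline and OVA, and from 0.35 to 0.48 for the difference between OVA differences. Klrb1b moved most: its genotype difference under OVA was 2.54 at a pseudocount of 0.1.

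Counts over all genes were less stable. For OVA in WT lungs, 3175 genes were called, and 1653 to 3517 with 1 library left out. For OVA in Has2+/- lungs, 532 were called, 350 with no filter, 51 with the trend and robust steps off, and 51 to 896 with 1 library left out. With the WT OVA and the Has2+/- saline library least like its own group left out together, 933 were called. For genotype under saline, 2 were called, 1 at a pseudocount of 0.1, 5 with those steps off, 7 with 2 groups in the fit, 4 without those libraries and 2 to 8 with 1 left out. For genotype under OVA, 181 were called, 105 with no filter, 10 with those steps off, 6 with 2 groups, 41 without those libraries and 17 to 770 with 1 left out. For the interaction, 3 were called, 0 at a pseudocount of 0.1, at a mean of at least 10 or without those libraries, 5 with those steps off and 0 to 25 with 1 left out. For genotype averaged over treatments, 80 were called, 9 with those steps off, 17 without those libraries and 19 to 259 with 1 left out. The NK markers had 1 call with those steps off in WT lungs (1 to 2 with 1 library left out) and 1 in Has2+/- lungs without those libraries (0 to 1). The NK complex list had 0 to 2 calls and the signalling list 2 to 6 in WT lungs, and the latter 0 to 2 for genotype under OVA, with 1 library left out. The causes were not tested. No paired analysis was possible because the columns carry none of the replicate numbers of the titles.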
